A study of Mus musculus with 32 samples.

Results

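The genes followed here are 10 that encode chaperones, folding enzymes and a regulator of the endoplasmic reticulum (ER): Hspa5, Hsp90b1, Calr, Canx, Pdia3, Pdia4, Pdia6, Dnajb9, Sdf2l1 and Xbp1. They were chosen by name, with no measured value in the rule, and all 10 were found among the 23035 genes of the footprint tables and the 39017 genes of the total RNA tables. Ribo-Seq, the sequencing of the mRNA pieces that ribosomes shield from nuclease, was used to follow translation in neural stem cells (NSCs) exposed to interferon-β (IFN-β), a type-I interferon. NSCs were taken from the ventricular-subventricular zone of C57BL/6 mice aged 8 to 12 weeks, grown ex vivo and treated with IFN-β or with vehicle alone, with an exposure of 2 h or of 14 h, which makes 4 groups of 4 cultures. Every culture, vehicle included, received the elongation inhibitor cycloheximide just before lysis, and each gave a footprint library and a total RNA library from the same lysate, 32 libraries in all. Per the study's methods, replicates are different mice or cultures from different mice. The labels number the cultures 2, 3, 5 and 6 at 2 h and 1 to 4 at 14 h and do not say whether a number used at both exposures marks the same culture. The cultures of the 2 exposures were taken as different ones, so that exposure time and culture set cannot be told apart wherever levels at 2 h and 14 h are set side by side.

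Proteins bound for the cell surface or for secretion enter the ER unfolded, and the chaperones of its lumen hold, fold and disulphide-bond them. The lectins calreticulin and calnexin, with their oxidoreductase partner Pdia3 (ERp57), handle glycoproteins, and calreticulin and Pdia3 are also part of the complex that loads peptides onto MHC class I, a set of surface proteins that interferon is known to raise. When folding lags, the sensors Atf6, Ern1 (IRE1α) and Eif2ak3 (PERK) start the unfolded protein response (UPR), which raises chaperone genes through the ER stress response element (ERSE) of their promoters and through the transcription factor Xbp1. The comparison of IFN-β with vehicle asks what happened to the share of translation taken by this machinery while MHC class I rose.

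The ERSE is shown here because it is the DNA element by which the UPR is known to reach several of these genes together. Promoter windows, taken from RefSeq on GRCm38.p6 and running from 250 bases before to 50 bases after each start, were found for all 10 genes and searched on both strands for the ERSE, written as CCAAT and CCACG with any 9 bases between them. A match was present in the windows of 5 of the 10 genes, against 39 of 32851 windows, or 0.119%, in the whole table. Each sequence below is written 5′ to 3′ on the gene's own strand, with the match in capitals and 30 bases on either side. Capitals that begin CGTGG mark a match that reads on the opposite strand.
Hspa5: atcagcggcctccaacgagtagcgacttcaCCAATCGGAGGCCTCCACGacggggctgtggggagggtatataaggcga
Hsp90b1, distal: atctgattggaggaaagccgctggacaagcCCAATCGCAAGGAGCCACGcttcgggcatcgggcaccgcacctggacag
Hsp90b1, proximal: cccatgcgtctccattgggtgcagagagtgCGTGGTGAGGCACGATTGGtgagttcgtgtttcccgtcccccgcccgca
Calr: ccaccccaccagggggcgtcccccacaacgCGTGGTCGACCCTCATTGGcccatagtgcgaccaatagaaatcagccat
Canx: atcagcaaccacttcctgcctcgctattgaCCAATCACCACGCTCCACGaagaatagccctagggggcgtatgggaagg
Pdia6: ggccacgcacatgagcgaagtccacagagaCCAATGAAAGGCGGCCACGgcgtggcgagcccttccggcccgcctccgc

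The Hspa5 stretch lies at chr2:34771995-34772073 on the plus strand, and its match begins 65 bases before the RefSeq start. The stretches of Hsp90b1 lie at chr10:86705608-86705686 and chr10:86705503-86705581 on the minus strand, with matches 212 and 107 bases before the start. Calr (chr8:84847045-84847123, minus strand, 162 bases before) and Canx (chr11:50325770-50325848, minus strand, 145 bases before) follow, and Pdia6 lies at chr12:17266461-17266539 on the plus strand with its match 98 bases before the start. Starts differ between annotations, and the Hspa5 match lies inside the gene as drawn in the Ensembl annotation, which begins at chr2:34771970. The related ERSE-II, ATTGG and CCACG with any 1 base between them, was in 12 windows (0.0365%), and an interferon-stimulated response element, written as GAAA repeated after any 2 bases, was in 1131 windows (3.44%); no window of the 10 genes held either. A match of letters is a description of the window and not a measured binding site.

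With vehicle alone the 10 genes fell into 3 tiers of footprint density. Density is the footprint count scaled to a common, TMM-adjusted library total (CPM), per kilobase of coding sequence. In vehicle cultures at 14 h Calr stood highest at 1093 ± 100 CPM per kb (SD, n = 4), and Canx at 874 ± 35.2, Pdia3 at 871 ± 19.7, Hspa5 at 793 ± 24.1 and Hsp90b1 at 771 ± 16.9 formed the rest of the top tier. Of these, Canx and Pdia3 differed by less than the SD of either, and Hsp90b1 lay within 1 SD of Hspa5 but not the reverse. The disulphide isomerases Pdia6 (309 ± 21.1 CPM per kb) and Pdia4 (292 ± 9.68) made the middle tier, in which Pdia4 lay within 1 SD of Pdia6 but not the reverse.

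The lowest tier held the J-domain co-chaperone Dnajb9 (ERdj4) at 46.0 ± 1.67 CPM per kb, Sdf2l1 at 44.8 ± 5.31 and Xbp1 at 38.4 ± 4.74. Among all 11813 genes ranked by density in the vehicle cultures at 14 h, Calr was 89th and Xbp1 3991st. The vehicle cultures at 2 h gave the same 3 tiers, from 886 ± 69.2 CPM per kb for Calr down to 25.5 ± 8.62 for Xbp1.

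After 2 h of IFN-β none of the 10 genes passed the main test in footprints, which did not pair the cultures. With the culture number as a block Xbp1 was called, as given below. All but Sdf2l1 and Xbp1 lay within 0.06 of no change on the log2 scale, and the median log2 fold change of the 10 was -0.026, beside -0.015 over all 12104 genes tested. The count of 0 of 10 stands against 7.25% of all genes called in either direction (edgeR, adjusted p under 0.05). At an unadjusted p under 0.05 edgeR gave 1 gene, Xbp1, and DESeq2 and limma-voom called 0 of the 10.

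Hspa5 encodes BiP, the Hsp70 of the ER lumen and the chaperone that also holds the UPR sensors inactive. At 2 h it stood at 1228, 1124, 1462 and 1067 CPM in the vehicle cultures numbered 2, 3, 5 and 6 and at 1227, 1201, 1432 and 1085 CPM in the IFN-β cultures of the same numbers. Culture 5 was the highest and culture 6 the lowest under both treatments, and the groups overlapped throughout. The log2 fold change was 0.02 with a 95% interval of -0.27 to 0.32 (edgeR).

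For the other abundant genes the interval of the 2 h difference was narrower than that of Hspa5. It ran from -0.24 to 0.17 for Hsp90b1, from -0.24 to 0.17 for Calr, from -0.19 to 0.16 for Canx and from -0.24 to 0.13 for Pdia3. Pdia4 (-0.19 to 0.18) and Pdia6 (-0.21 to 0.15) were alike in this, whereas Dnajb9 (-0.40 to 0.36) and Sdf2l1 (-0.49 to 0.14) had wider intervals than Hspa5.

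Xbp1, the transcription factor that Ern1 activates by splicing its mRNA, had the largest estimate of the 10 at 2 h. Its footprints were 16.2, 19.9, 32.4 and 18.3 CPM in vehicle cultures 2, 3, 5 and 6 and 25.9, 27.0, 44.1 and 33.5 CPM in the IFN-β cultures. It was higher with IFN-β in each of the 4 numbered pairs, although vehicle culture 5 lay above IFN-β cultures 2 and 3. The log2 fold change was 0.60 ± 0.25 (SE), or 1.51-fold, with an adjusted p of 0.253 in edgeR, so the difference was not called. Footprints of same-numbered cultures varied together, and with the culture number as a block the same change of 0.60 ± 0.09 (SE) had an adjusted p of 7.9e-06 in edgeR. That block called 15.9% of all genes higher and 13.4% lower, and Xbp1 was the 1 gene of the 10 that it called at 2 h. Counts per gene do not separate spliced from unspliced Xbp1 mRNA.

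**Figure D1:**
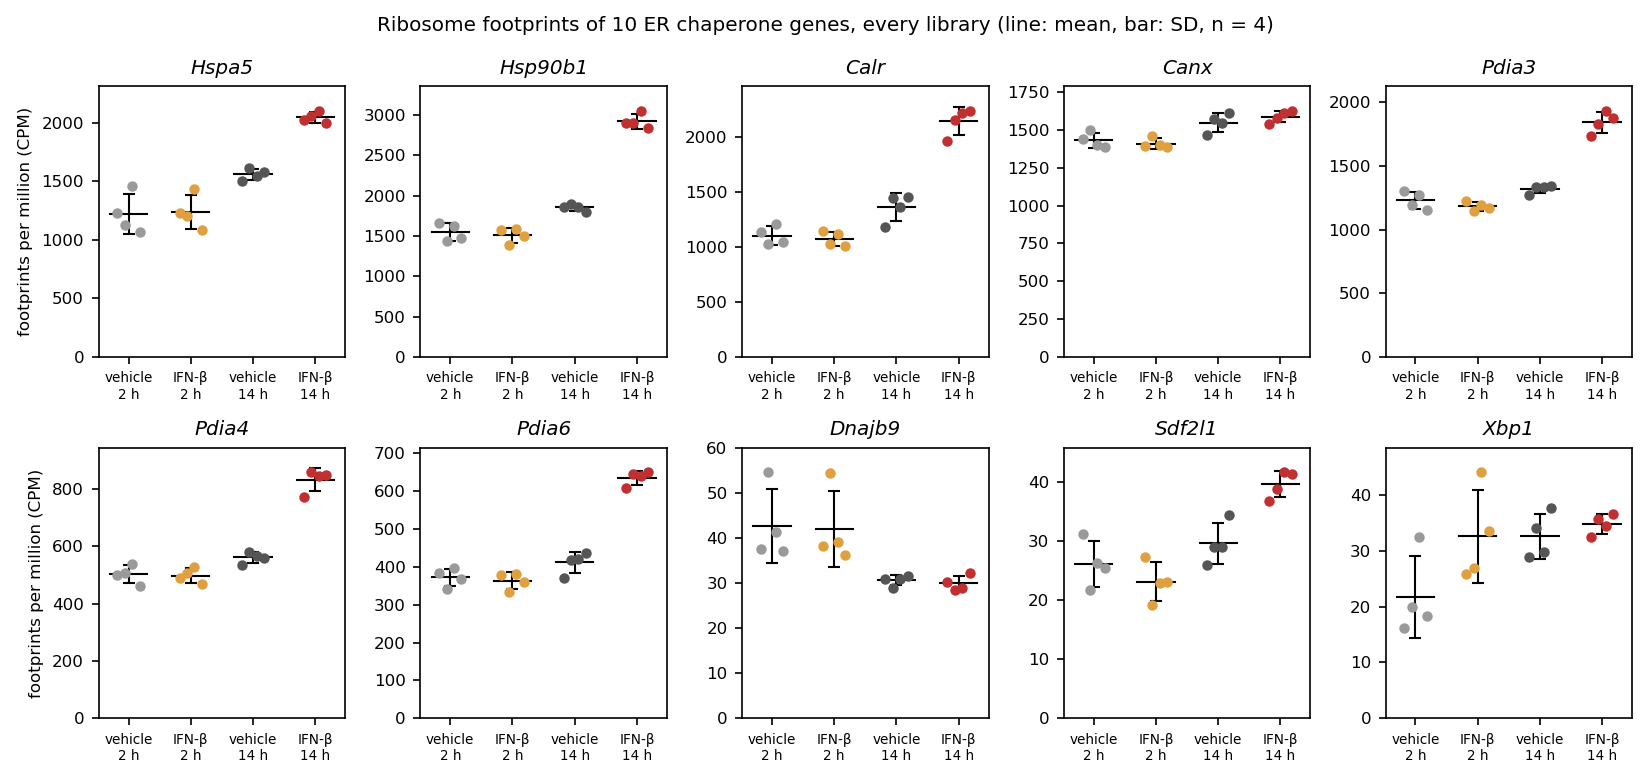
Footprints of each of the 10 genes in CPM (y axis, from 0, scaled per gene) in every library of the 4 groups (x axis); points are libraries in order of culture number, the long line is the mean and the bar the SD (n = 4). In 7 panels the IFN-β libraries at 14 h lie above all vehicle libraries at 14 h, and Canx, Dnajb9 and Xbp1 do not.

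After 14 h of IFN-β 7 of the 10 genes rose in footprints relative to the rest of the library, by 1.3-fold to 1.57-fold, and none fell. Over all 12113 genes tested 26.2% were called higher and 26.3% lower (edgeR, adjusted p under 0.05). In the same 7 genes each IFN-β library lay above each vehicle library, as it did for 23.4% of all genes tested. The median log2 fold change of the 10 was 0.44, beside 0.00 over all genes. In bulk libraries a change in the number of cells of a type and a change per cell cannot be told apart. The paper reports that global protein synthesis fell strongly after long exposure to IFN-β. Values relative to the library do not show whether the absolute output of these genes rose or fell.

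Of the Hsp70 and Hsp90 chaperones, Hspa5 counted 1501, 1612, 1545 and 1579 CPM in vehicle cultures 1 to 4 and 2028, 2056, 2104 and 1999 CPM with IFN-β. All IFN-β cultures were higher and the groups were nearly equally tight. The mean went from 1559 ± 47.4 to 2047 ± 44.7 CPM (SD, n = 4), a log2 fold change of 0.38 ± 0.05 (SE) with an edgeR adjusted p of 1.99e-05.

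Hsp90b1 (Grp94), the ER paralog of Hsp90, was called too. It counted 1863, 1900, 1859 and 1801 CPM in vehicle cultures and 2897, 2902, 3054 and 2836 CPM with IFN-β. The IFN-β cultures again lay above all vehicle cultures, and the mean went from 1856 ± 40.6 to 2922 ± 92.9 CPM (SD, n = 4), a log2 fold change of 0.65 ± 0.05 (SE) with an edgeR adjusted p of 1.79e-07.

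Of the lectin pair of the calnexin cycle, Calr rose and Canx did not pass the test. Calr, the soluble lectin, counted 1187, 1446, 1365 and 1459 CPM in vehicle cultures 1 to 4 and 1962, 2159, 2225 and 2243 CPM with IFN-β, for a log2 fold change of 0.65 ± 0.07 (SE, edgeR adjusted p 6.79e-06). Canx, its membrane-bound homologue, counted 1465, 1575, 1548 and 1612 CPM in the same vehicle cultures and 1541, 1578, 1611 and 1629 CPM with IFN-β. Culture 1 was the lowest in each of these 4 groups. The Canx groups overlapped, and its log2 fold change of 0.03 had a 95% interval of -0.08 to 0.14 (edgeR adjusted p 0.657), whose upper end is 1.1-fold.

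Set against each other, the log2 ratio of Calr to Canx was -0.19 ± 0.08 (SD, n = 4) in vehicle cultures and 0.43 ± 0.06 with IFN-β at 14 h. The difference of 0.62 gave p = 0.0286 in a two-sided exact permutation test, the smallest that 4 against 4 allows, or 0.0572 after adjustment over the 4 ratio comparisons. At 2 h the difference was -0.02 (exact permutation p = 0.886, adjusted 0.886).

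The protein disulphide isomerases, which form and reshuffle disulphide bonds, rose together. Pdia3 counted 1275, 1333, 1332 and 1340 CPM in vehicle cultures and 1735, 1830, 1935 and 1875 CPM with IFN-β, for a log2 fold change of 0.47 ± 0.05 (SE). Pdia4 (ERp72) counted 535.7, 580.1, 566.8 and 560.1 CPM against 771.6, 858, 845.9 and 849.5 CPM, and Pdia6 (P5) counted 372, 419, 421 and 437 CPM against 608, 645, 639 and 651 CPM. Culture 1 was the lowest of each of these 6 groups, and no group overlapped its counterpart. The log2 fold changes of Pdia4 and Pdia6 were 0.56 ± 0.05 and 0.62 ± 0.06 (SE), and the edgeR adjusted p of the 3 genes were 6.65e-06, 1.75e-06 and 1.27e-06. Culture 1 gave the library with the fewest footprints of both groups, 5366290 for vehicle and 2956297 for IFN-β; the part of depth in its low values was not tested.

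The less abundant co-factors went separate ways. Sdf2l1, which sits in complexes with the J-domain proteins of the ER lumen, counted 26.00, 29.12, 29.08 and 34.47 CPM in vehicle cultures and 36.92, 38.92, 41.76 and 41.40 CPM with IFN-β. These groups did not overlap either, and the log2 fold change was 0.41 ± 0.09 (SE, edgeR adjusted p 0.00161). Dnajb9, the J-domain co-chaperone of Hspa5 and a known target of spliced Xbp1, counted 30.8, 29.0, 30.9 and 31.6 CPM in vehicle cultures and 30.2, 28.5, 29.0 and 32.3 CPM with IFN-β. The groups lay over each other, with a log2 fold change of -0.03 and a 95% interval of -0.19 to 0.13 (edgeR adjusted p 0.798).

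Xbp1 itself counted 28.9, 34.0, 29.8 and 37.6 CPM in vehicle cultures at 14 h and 32.6, 35.6, 34.4 and 36.6 CPM with IFN-β. The highest value belonged to a vehicle culture, and the log2 fold change was 0.09 with a 95% interval of -0.11 to 0.28 (edgeR adjusted p 0.444). The log2 ratio of Hspa5 to its co-chaperone Dnajb9 was 5.67 ± 0.08 (SD, n = 4) in vehicle cultures and 6.09 ± 0.11 with IFN-β (difference 0.42, exact permutation p = 0.0286, adjusted 0.0572), against a difference of 0.05 at 2 h (exact permutation p = 0.771, adjusted 0.886).

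With regard to the ERSE stretches printed above, 4 of the 5 genes with a match rose at 14 h (Hspa5, Hsp90b1, Calr and Pdia6, but not Canx), and so did 3 of the 5 without one (Pdia3, Pdia4 and Sdf2l1). Outside the 10, 8 genes with a match in their window were tested at 14 h, and their median change was 0.31 on the log2 scale. Of these, 5 were called higher (Creld2, Dnajc3, Syvn1, Alg12 and Spats2l) and 3 lower (Adcy3, Hnrnpa3 and Pan2). All counts of this paragraph stand beside 26.2% of all genes called higher and 26.3% called lower at 14 h.

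The difference between the responses at 14 h and 2 h was tested as such, by an interaction term of treatment with time in 1 fit to all 16 footprint libraries. The response was larger at 14 h for the same 7 genes, against 15.4% of all 12508 genes called in this direction and 15.5% called in the other. The difference in log2 fold change was 0.69 ± 0.10 (SE) for Hsp90b1, 0.69 ± 0.12 for Calr and 0.66 for Pdia6, with edgeR adjusted p of 9.04e-05, 0.000408 and 0.000137. For Pdia4 it was 0.58, for Pdia3 0.54 and for Sdf2l1 0.60, with edgeR adjusted p of 0.000245, 0.000317 and 0.0146.

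Hspa5 had the smallest difference of the 7, 0.37 ± 0.14 (SE) and an edgeR adjusted p of 0.0494. It fell short of the threshold on leaving out any of 13 of the 16 libraries and with no filter on low counts (adjusted p 0.0866), and with the culture number within each exposure as a block its adjusted p was 8.79e-08. Canx (0.06, edgeR adjusted p 0.638) and Dnajb9 (0.00, edgeR adjusted p 1) did not pass. Xbp1 pointed the other way, with a difference of -0.50 ± 0.27 (SE, edgeR adjusted p 0.175). The block, which called 28.0% of all genes higher and 27.5% lower, gave -0.52 for Xbp1 with an edgeR adjusted p of 0.000548, and leaving out vehicle culture 5 of the 2 h set gave -0.76 with 0.0173.

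**Figure D2:**
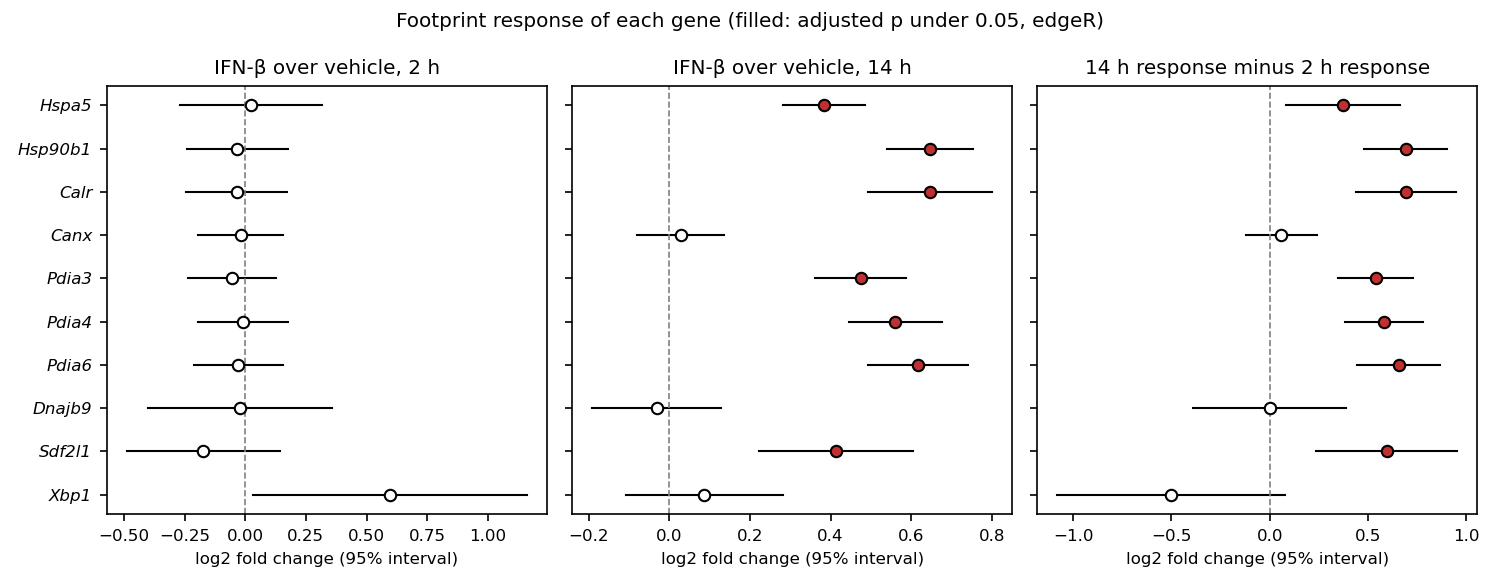
Log2 fold change of footprints, IFN-β over vehicle, at 2 h (left) and 14 h (middle), and the 14 h response minus the 2 h response (right), for each of the 10 genes; points are edgeR estimates, bars 95% intervals, filled points an adjusted p under 0.05, and each panel has its own x scale. No point is filled at 2 h, 7 are filled at 14 h between 0.38 and 0.65, and the same 7 are filled on the right.

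Summed over the 10 genes, ER chaperones took 0.886 ± 0.0201% (SD, n = 4) of all footprints in vehicle cultures at 14 h and 1.22 ± 0.0335% with IFN-β. The ranges, 0.861% to 0.909% and 1.17% to 1.25%, did not overlap. At 2 h the shares were 0.753 ± 0.0464% with vehicle and 0.720 ± 0.0305% with IFN-β and overlapped.

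The MHC class I list, 15 genes of heavy chains, light chain and peptide loading, was low at the start. It took 0.0330 ± 0.00204% of footprints in vehicle cultures at 14 h and 0.804 ± 0.0678% with IFN-β, and 0.0461 ± 0.00844% and 0.123 ± 0.0279% at 2 h. IFN-β libraries lay above vehicle libraries at both times.

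**Figure D3:**
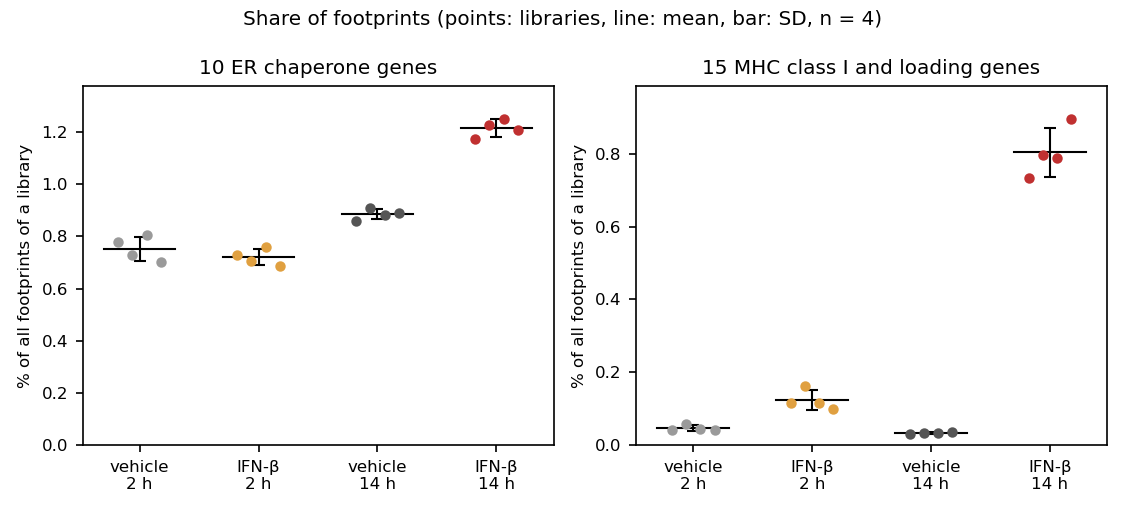
Share of all footprints of a library, in percent (y axis, from 0), taken by the 10 ER chaperone genes (left) and by 15 MHC class I and peptide loading genes (right) in the 4 groups (x axis); points are libraries, the line is the mean and the bar the SD (n = 4). Chaperones go from 0.886% to 1.22% at 14 h, and the MHC class I list from 0.0330% to 0.804%.

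Clients and partners of the chaperones in peptide loading were already called at 2 h. There 8 of the 14 MHC class I genes tested were called higher, among them the peptide transporter subunits Tap1 (log2 fold change 3.33) and Tap2 (2.12), the tapasin-related Tapbpl (2.16), the light chain B2m (1.44) and the peptide-trimming Erap1 (0.64). The heavy chains H2-K1 (0.19, edgeR adjusted p 0.599) and H2-D1 (0.69, edgeR adjusted p 0.14) and tapasin, Tapbp (0.68, edgeR adjusted p 0.204), did not pass at 2 h. With the culture number as a block, these 3 passed too, as did all 14. Over all genes 7.25% were called in either direction at 2 h, and 15.9% higher with the block. At 14 h all 15 were called higher, against 26.2% of all genes, and the median change was 4.95 on the log2 scale. Among them H2-T24 averaged 37.5 counts per library with a 693-fold change. It reached the count filter through its IFN-β libraries alone, so its call adds no support. Singly, H2-D1 had 5.81, H2-K1 4.95, Tap1 4.62, B2m 4.50, Tap2 4.23, Tapbp 3.83, Tapbpl 3.45 and Erap1 3.15. Some H2 genes are close copies of each other, and the counting may have split the reads of such copies between them. Single values of such copies are uncertain.

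In levels, B2m went from 167 ± 11.7 to 3804 ± 347 CPM at 14 h (SD, n = 4) and Tapbp from 18.2 ± 1.69 to 261 ± 16.1 CPM. Among the 10 genes, the members of the loading complex Calr and Pdia3 rose 1.57-fold and 1.39-fold, against 14.2-fold for Tapbp and 22.6-fold for B2m.

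The other genes of the secretory pathway were followed in lists. Their counts at 14 h stand beside 26.2% of all genes called higher and 26.3% called lower. Those at 2 h stand beside 7.25% called in either direction, or with the block 15.9% higher and 13.4% lower. Of 14 UPR sensors and signal mediators tested at 14 h, 7 were called higher and 0 lower, and the median change was 0.22 on the log2 scale. They were Atf6, its paralog Atf6b (0.54), the protease that activates them, Mbtps1, the eIF2α phosphatase subunit Ppp1r15a (0.84), Trib3, Atf3 (0.63) and the ER membrane protein Wfs1 (0.37). Atf3 averaged 15.6 counts per library there, and its call was lost with DESeq2 (adjusted p 0.122), without a count filter and on leaving out any of 4 libraries. At 2 h 2 of the 14 were called higher, Atf3 (log2 fold change 2.55, edgeR adjusted p 0.00132) and Ppp1r15a (0.87, edgeR adjusted p 0.0385), both of them known targets of the eIF2α branch. The Ppp1r15a call at 2 h was lost on leaving out any of 7 of the 8 libraries, and with the culture number as a block 5 of the 14 were called higher at 2 h.

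Across times, Atf6b (0.67) and Wfs1 (0.46) responded more at 14 h, and Atf3 (-1.91) and Ppp1r15b (-0.26), the constitutive eIF2α phosphatase subunit, responded less. The Ppp1r15b difference was lost on leaving out any of 14 of the 16 libraries. In this list the 2 calls in each direction at the interaction became 3 and 4 with the culture number as a block.

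Other folding factors of the ER moved with the 7 chaperones at 14 h in part. Of 32 tested, 17 were called higher and 3 lower, and the median change was 0.24 on the log2 scale. Of those with at least 50 counts per library on average, the prolyl isomerase Fkbp14 (0.63) and the disulphide isomerase Pdia5 (0.54) had the largest rises, and Fkbp10 (0.65), with 27.25 counts, was called higher too. In the other direction the glucosyltransferase homologue Uggt2 (-0.68), the thioredoxin-like Tmx3 (-0.15) and calmegin, Clgn (-1.33, with 18.5 counts per library on average), fell. The Tmx3 call was lost with DESeq2 (adjusted p 0.0536) and on leaving out any of 6 of the 8 libraries. None of the 32 passed at 2 h, and with the culture number as a block 1 was called higher and 3 lower there.

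ER-associated degradation, which extracts misfolded proteins for the proteasome, had 11 of 21 genes called higher and 0 lower at 14 h, and their median change was 0.15 on the log2 scale. The E3 ligase Syvn1 (Hrd1, 0.78) and its partner Selenos (0.61) led this list. At 2 h 1 of the 21 was called, the ubiquitin-conjugating Ube2g2 (0.54, edgeR adjusted p 0.00373), and the block called 2 higher and 2 lower.

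Vesicle transport from the ER to the Golgi had 11 of 23 genes called higher and 0 lower at 14 h (median log2 fold change 0.13), led by Kdelr3 (1.02), a receptor that returns KDEL-tailed chaperones to the ER, and the COPII coat protein Sec24d (0.97). The entry step gave no such direction. Of 35 genes of translocation, glycosylation and signal cleavage, 9 were called higher and 7 lower with a median of 0.00, from the translocon-associated Ssr2 (0.43) and the oligosaccharyltransferase subunit Tusc3 (0.33) to Ost4 (-0.69) and the signal peptidase subunit Spcs3 (-0.59). Neither list had a call at 2 h. The block there called 3 genes of ER to Golgi transport higher and 2 lower, and 2 of translocation higher and 1 lower.

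Among chaperones of the cytosol and mitochondria, more genes fell than rose at 14 h. Of 28 tested, 3 were called higher and 13 lower, and the median change was -0.13 on the log2 scale. The mitochondrial chaperonin Hspd1 (-0.56) and the cytosolic Hsp90aa1 (-0.45) were among the 13, and the 3 were the co-chaperones Bag3 (0.87) and Bag1 (0.54) and the small heat shock protein Hspb8 (1.91). At 2 h Bag3 (0.74, edgeR adjusted p 0.00432) and Hspb8 (1.21, edgeR adjusted p 0.0439) were called higher and no gene lower, and with the culture number as a block 16 of 29 were called higher and 1 lower. The Hspb8 call at 2 h was lost on leaving out any of 6 of the 8 libraries.

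The whole list took 1.49 ± 0.0303% of footprints in vehicle cultures at 14 h and 1.26 ± 0.0625% with IFN-β (SD, n = 4), as the share of the 10 ER genes grew. Its ranges, 1.45% to 1.52% and 1.20% to 1.35%, did not overlap.

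**Figure D4:**
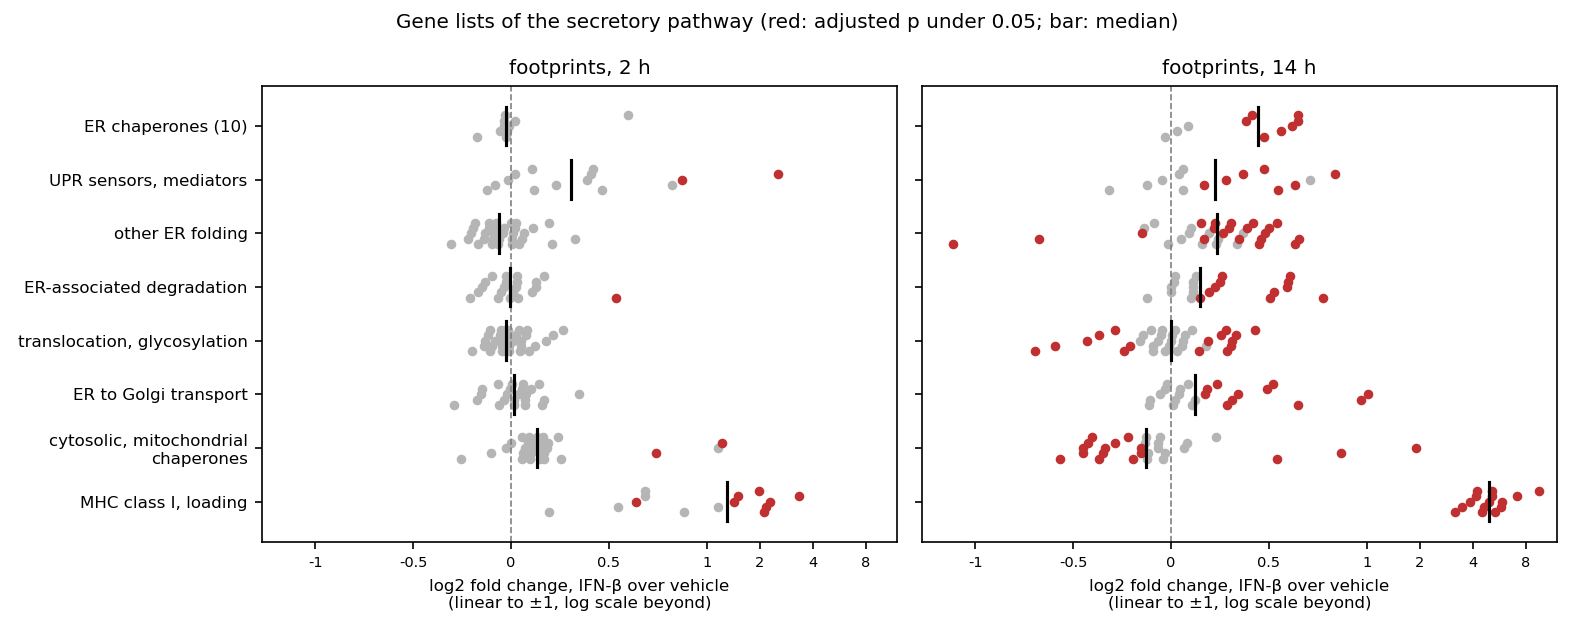
Log2 fold change of footprints, IFN-β over vehicle, for the genes of 8 lists (y axis) at 2 h (left) and 14 h (right); the x axis is linear to 1 and logarithmic beyond, each point is a gene, red points have an edgeR adjusted p under 0.05 and the bar is the list's median. At 14 h the medians are 0.44 for the 10 ER chaperones, 4.95 for the MHC class I list and -0.13 for cytosolic and mitochondrial chaperones, and the last list is the 1 with most of its called genes below 0.

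For likeness, the log2 CPM of each gene was taken less its mean over the vehicle libraries of the same exposure. Over the 16 footprint libraries, the mean of this quantity over the 10 genes was followed most closely by Prepl (Pearson r 0.959), the COPII coat protein Sec23a (0.955), Dbnl (0.952), the MHC class I gene H2-Q7 (0.950) and the ER to Golgi cargo receptor Ergic3 (0.949), among 10304 other genes. The libraries fall into the 4 groups, so that r is a description of how far these genes share the steps from vehicle to IFN-β. At 14 h the log2 fold changes were 0.71 for Prepl, 0.65 for Sec23a, 0.66 for Dbnl and 0.48 for Ergic3, close to those of the chaperones, but 5.35 for H2-Q7. Within the 10, each gene was set against the mean of the other 9: r was 0.973 for Calr, 0.969 for Pdia4, 0.957 for Pdia6, 0.946 for Pdia3, 0.925 for Hspa5, 0.923 for Hsp90b1 and 0.747 for Sdf2l1, and 0.478 for Canx, -0.09 for Xbp1 and -0.17 for Dnajb9.

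Total RNA counts of these genes were low. In each library the abundant genes had 1638 to 26443 footprints but 0 to 127 RNA counts: Hspa5 had 4 to 100 RNA counts, Hsp90b1 1 to 57, Calr 2 to 127, Canx 3 to 125, Pdia3 4 to 33, Pdia4 0 to 30 and Pdia6 0 to 83. Dnajb9, Sdf2l1 and Xbp1, with 90 to 396 footprints, had 0 to 11. Only 7 of the 10 reached the count filter in RNA at 2 h and 4 at 14 h.

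**Figure D5:**
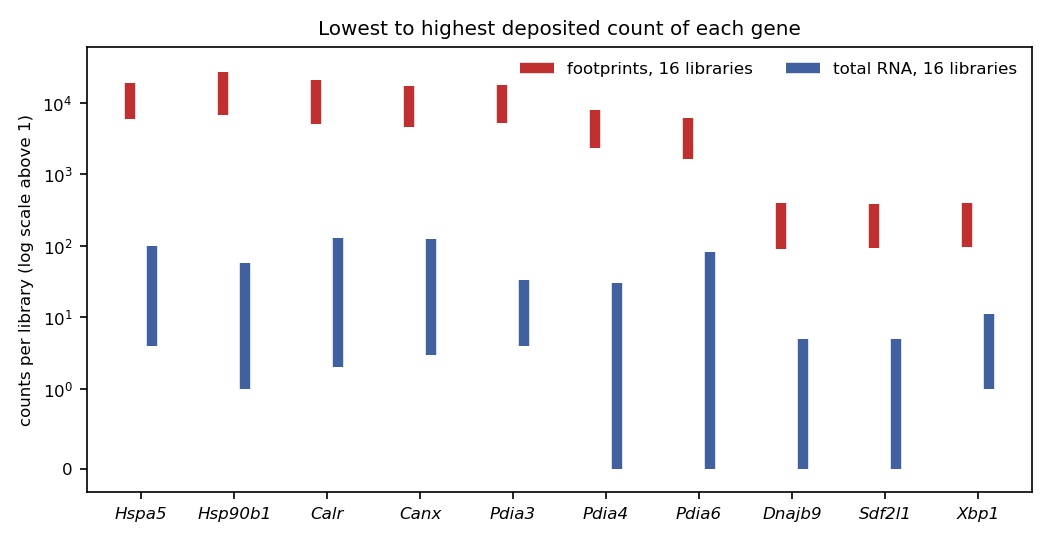
Lowest to highest deposited count per library (y axis, log scale above 1) of the 10 genes (x axis) in the 16 footprint and the 16 total RNA libraries; bars span the range. For each gene the whole RNA range lies below the footprint range.

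The same was seen for other abundant transcripts of these cells, such as Vim with 9251 to 52430 footprints and 3 to 103 RNA counts per library. Over 5541 protein-coding genes with at least 50 footprints on average and no gene on the opposite strand, the median was 327.5 footprints against 8.19 RNA counts. Genes annotated as antisense held 8.37% to 16.8% of RNA counts but 0.0011% to 0.0022% of footprints, and in 591 of 779 pairs of an expressed coding gene and a non-coding gene opposite it, the non-coding gene had more RNA counts. The RNA library kit marks strand, the strand setting of the counting is not given in the sources used here, and its part in these values was not tested.

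As deposited, then, the RNA counts called none of the 10 genes at 2 h (7 tested, against 0.799% of all genes called) or at 14 h (4 tested, against 6.30%), with 0 at an unadjusted p under 0.05 by edgeR at either time and 0 by DESeq2 and limma-voom. Translational efficiency (TE), the ratio of footprints to total RNA, was tested in all 10 and called none at 2 h or 14 h, against 0.815% and 8.45% of all genes (edgeR, adjusted p under 0.1). At an unadjusted p under 0.05 edgeR gave 1 gene at 2 h, Dnajb9, and 0 at 14 h, and DESeq2 and limma-voom gave 0 calls. These tests rest on the low counts just given and set no limit on the change in mRNA. Genes short of the count filter in RNA entered the TE test through their footprints. At 14 h the interval of the log2 change in TE was narrowest for Pdia3, -0.34 to 0.98, and widest for Dnajb9, -3.53 to 2.41. The absence of TE calls therefore does not show that TE was unchanged.

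On the strand opposite Hsp90b1 lies 1810014B01Rik, a transcribed pseudogene that shares 415 exon bases with it, 10.3% of its exons. It was singled out after its values were seen. It had 194 to 5012 RNA counts per library where Hsp90b1 had 1 to 57, and at 14 h it stood at 357 ± 51.3 CPM with vehicle and 688 ± 195 CPM with IFN-β (SD, n = 4; log2 fold change 0.90 ± 0.23 SE, edgeR adjusted p 0.0261). This call was lost with total-count scaling (adjusted p 0.227), with all groups in 1 fit (0.144) and on leaving out any of 6 of the 8 libraries. With the strand setting of the counting not given, it cannot be told which of the 2 genes the reads in the shared stretch came from. Whether this rise is that of the pseudogene's own RNA was not tested.

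The libraries held 2956297 to 10505108 footprints and 1370008 to 7877753 RNA counts, and no pair of them was identical. Markers of NSCs and progenitors (Nes, Sox2, Slc1a3, Fabp7, Vim and Egfr) summed to 10518 to 17902 CPM of footprints in every library, all 6 present. At 14 h, when the chaperones rose, the sum was 11067 to 13114 CPM with vehicle and 10518 to 12134 CPM with IFN-β, and 2 of the 6 were called lower, Slc1a3 (log2 fold change -0.36, edgeR adjusted p 7.41e-05) and Fabp7 (-0.40, edgeR adjusted p 0.000128). Neuronal markers summed to 48.2 to 116 CPM, oligodendrocyte markers to 0.965 to 19.4 CPM and endothelial markers to 7.55 to 17.4 CPM. At 14 h neuronal markers summed to 48.2 to 56.5 CPM with vehicle and 52.0 to 65 CPM with IFN-β, with 1 of the 2 tested called higher, Tubb3 (0.23, edgeR adjusted p 0.0295), and endothelial markers to 8.96 to 12.1 CPM and 10.1 to 14.0 CPM, with 1 of the 2 tested called higher, Tek (0.84, edgeR adjusted p 0.00102). The sum of 6 microglial markers was 20.7 to 26.6 CPM with IFN-β at 14 h and 5.94 to 8.48 CPM with vehicle, but it came from P2ry12 (log2 fold change 1.62, edgeR adjusted p 5.84e-07), while Aif1, Cx3cr1 and C1qa were at 0 in all footprint libraries. With all groups in 1 fit the calls of Slc1a3 (edgeR adjusted p 0.22), Fabp7 (0.0767) and Tubb3 (0.346) were lost, and that of Tubb3 also on leaving out vehicle culture 1 (0.056) or 3 (0.065) or IFN-β culture 2 (0.0639) or 4 (0.0888). The marker calls at 14 h stand beside 26.2% of all genes called higher and 26.3% called lower. No marker was called at 2 h, and the part of these marker changes in the chaperone values was not tested. The cultures numbered 3 at 2 h stood apart under both treatments, Dnajb9 among the genes in which they did so (54.7 CPM with vehicle and 54.5 with IFN-β, against 36.3 to 41.4 in the others). Without them, as with all other settings but the block, none of the 10 genes was called at 2 h.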

How the data were processed

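The authors trimmed reads (Trim Galore 0.4.4), mapped them to mm10 (Bowtie 0.12.7 in the submitters' processing notes), removed duplicates and deposited raw counts per gene, of coding sequences for footprints and of whole genes for total RNA. These counts were tested here with edgeR 4.0.16 in R 4.3.3 (quasi-likelihood, two-sided, TMM, at least 10 counts in at least 4 libraries, Benjamini-Hochberg over all genes, called at an adjusted p under 0.05, under 0.1 for TE), after a check on simulated data. CPM are counts relative to the library total after TMM adjustment over all libraries of a kind. Shares in percent are of the unadjusted total. Alternatives were RLE and total-count scaling, DESeq2 1.42.0, limma-voom (3.58.1), other count filters, a replicate block, all groups in 1 fit and leaving out each library. The genes, lists and tests were chosen with earlier results of these data known. Named genes were the 10, the 8 MHC class I genes given singly, the 2 largest called changes per direction of each list at 14 h (at least 50 counts), and the 5 with the most similar pattern; other called genes of short lists (such as Atf3, Wfs1, Clgn, Fkbp10 and Hspb8), markers that were called and genes with an ERSE were named after their values were seen. Of 172 listed genes, 171 matched. 1 marker of the stem cell list is not reported here. Same-numbered footprint cultures deviated together (r 0.345 to 0.821 at 2 h and 0.203 to 0.434 at 14 h, every culture correlating best with its own number). The numbers, which the labels give, were used as pairs in the replicate block alone. The main tests and the exact permutation tests of ratios left the pairs out. P-values of these tests measure the spread between cultures, and those of the block the spread of differences within same-numbered pairs.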

Additional observations from a re-analysis of the deposited data

Results flagged for a closer look

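In 3 of the 40 sets of 4 libraries formed by the 10 genes and the 4 footprint groups, 1 library lay far from the other 3, where chance gives about 1 in 20. Dnajb9 was 54.53 CPM in IFN-β culture 3 at 2 h, with the others at 36.3 to 39.2 CPM. Pdia3 was 1275 CPM in vehicle culture 1 at 14 h, below 1332 to 1340 CPM in the others, and Pdia4 was 771.6 CPM in IFN-β culture 1 at 14 h, below 845.9 to 858 CPM.

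Responses that differed between the exposures, by edgeR's test of the interaction of time and treatment, were those of Hspa5 (0.37 on the log2 scale, larger at 14 h), Hsp90b1 (0.69), Calr (0.69), Pdia3 (0.54), Pdia4 (0.58), Pdia6 (0.66) and Sdf2l1 (0.60). Among the UPR genes, Atf6b (0.67) and Wfs1 (0.46) differed in the same direction, and Ppp1r15b (-0.26) and Atf3 (-1.91) in the other.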

How the results depend on the processing

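At 14 h the 7 calls among the 10 genes held under all alternatives, and at 2 h none was called except with the replicate block (1 higher, Xbp1). The block called 3538 genes in footprints of the short exposure, 7609 of the long one and 6944 for the difference between times, where it called 1 of the 10 lower (Xbp1). In total RNA, from the same lysates as the footprints, same-numbered cultures did not all deviate together. There r was -0.484 to 0.388 at 2 h (0 of 4 best with their own number) and -0.009 to 0.247 at 14 h (3 of 4). The replicate block called 63 RNA genes after 2 h and 519 after 14 h, and in TE 168 and 1251. Footprint calls at 2 h numbered 878, 1527 with all groups in 1 fit and 1671 without the 2 h cultures numbered 3, a setting added after the data were seen. RNA calls at 2 h numbered 93, 169 with DESeq2, 174 with no filter, 44 at a mean of at least 50 counts and 180 with all groups in 1 fit. At 14 h they numbered 474, 269 with total counts, 247 at a mean of at least 50 counts and 310 with all groups in 1 fit. TE calls at 2 h numbered 115, 51 with total counts, 250 with DESeq2, 241 with limma-voom and 27 at a mean of at least 50 counts, and at 14 h 1136 and 380 at that mean. Total-count scaling moved the median of all genes by 0.191 in RNA and -0.336 in TE at 2 h and by 0.106 in RNA at 14 h, and the share of RNA calls that were higher from 90.3% to 79.8% at 2 h and from 55.1% to 65.8% at 14 h.

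Signs turned where values lay near 0: Hspa5 at 2 h was -0.020 with total counts and -0.001 without the cultures numbered 3, and the difference between times for Dnajb9 was 0.008 with RLE and with DESeq2, 0.019 with total counts and at a mean of at least 50 counts, 0.011 with limma-voom and 0.004 without those cultures. Leaving out 1 library at a time, the log2 fold change at 2 h ran from -0.062 to 0.119 for Hspa5, -0.065 to 0.008 for Hsp90b1, -0.070 to 0.011 for Calr, -0.040 to 0.006 for Canx, -0.053 to 0.026 for Pdia4, -0.067 to 0.011 for Pdia6 and -0.165 to 0.118 for Dnajb9, that of Dnajb9 at 14 h from -0.070 to 0.003, and its difference between times from -0.136 to 0.142. Called genes then numbered 517 to 953 for footprints at 2 h (517, 563 and 575 without IFN-β cultures 5, 2 and 6), 5613 to 6353 at 14 h and 3229 to 4929 for the difference, in which 6 to 7 of the 10 were higher and 0 to 1 lower. For RNA they numbered 30 to 74 at 2 h (30, 33, 40 and 57 without IFN-β cultures 2, 5 and 6 and vehicle culture 5) and 171 to 450 at 14 h (171, 213, 271 and 265 without IFN-β cultures 1 to 4), and for TE 70 to 149 (70 and 73 without IFN-β and vehicle cultures 5) and 828 to 1111. The cause of these shifts was not tested. Depth limits Dnajb9, Sdf2l1 and Xbp1, with 90 to 396 footprints per library, and all RNA values of the 10 genes.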
